A study of Homo sapiens with 6 samples.

Results

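The miR-146 and miR-155 families are described here through the 5 mature names hsa-miR-146a-5p, hsa-miR-146b-5p, hsa-miR-146b-3p, hsa-miR-155-5p and hsa-miR-155-3p. They were taken by name from the class of known mature miRNAs, which held 1727 names over 6 small RNA libraries, and all 5 were listed in at least 1 library. The libraries came from BEAS-2B, an established line of immortalised human bronchial epithelial cells, sampled 48 h after treatment. In 3 libraries the cells had received pcDNA-PRMT1, labelled as over-expression of the arginine methyltransferase PRMT1. In the 3 control libraries they had received pcDNA3.1, a plasmid vector for expression in mammalian cells. Whether a replicate is its own culture is not said in the labels, and the tests therefore cover the spread among these libraries, which may be technical. How the plasmids were delivered was not stated, and all groups carry one. Levels of PRMT1 itself were not analysed here.

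MiR-146a and miR-155 are transcribed in response to NF-kB, the transcription factor that Toll-like receptors and the interleukin-1 receptor activate. MiR-146 limits that response by repressing IRAK1 and TRAF6, the signalling proteins that link these receptors to NF-kB. MiR-155 represses SOCS1 and INPP5D, which restrain cytokine and phosphoinositide signalling, and is best known from immune cells. Each hairpin yields a 5p and a 3p strand. In these families the 5p strand is the guide that is loaded into Argonaute, and the 3p strand is mostly discarded.

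The mature sequences are shown because paralog and arm balance rest on telling them apart. They come from RefSeq (GRCh38.p14), where all 5 names matched, written 5′ to 3′ with the seed, bases 2 to 8, in capitals. The other arm of miR-146a is added for comparison.
hsa-miR-146a-5p: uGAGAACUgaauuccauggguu
hsa-miR-146b-5p: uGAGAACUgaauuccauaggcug
hsa-miR-155-5p: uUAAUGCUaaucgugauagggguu
hsa-miR-146a-3p: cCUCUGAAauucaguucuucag
hsa-miR-146b-3p: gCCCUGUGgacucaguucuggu
hsa-miR-155-3p: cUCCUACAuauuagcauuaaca

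MiR-146a-5p and miR-146b-5p share their seed and the first 17 bases. Counted from 1 at the 5′ end of miR-146a-5p, they differ by G18A and U21C among 22 compared bases, and miR-146b-5p is 1 base longer. Reads that end before base 18 match both names, and the sources used here do not say how such reads were counted. MiR-155-5p has another seed. Among 2370 mature names in RefSeq, the only other name with the miR-146 5p seed was hsa-miR-7153-5p, which had a count of 0 in all 6 libraries, and no other name shared the seed of miR-155-5p, miR-155-3p or miR-146b-3p.

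The 2 miR-146 hairpins are shown with both mature strands in capitals, because the arm ratios compare these stretches. MIR146A lies at chr5:160485352-160485450 (GRCh38.p14, plus strand), in exon 2 of MIR3142HG, a long noncoding RNA gene of GENCODE 29. MIR146B lies at chr10:102436512-102436584 (plus strand), where that annotation holds no other gene. MIR155 lies at chr21:25573980-25574044 (plus strand), in exon 4 of a transcript of MIR155HG, its noncoding host gene.
MIR146A: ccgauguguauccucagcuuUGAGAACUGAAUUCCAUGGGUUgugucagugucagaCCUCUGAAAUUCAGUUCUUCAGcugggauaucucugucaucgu
MIR146B: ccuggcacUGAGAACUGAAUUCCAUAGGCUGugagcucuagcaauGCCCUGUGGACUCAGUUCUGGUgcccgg

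Total counts per library ran from 23.95 M to 25.79 M, of which known miRNAs took 11.91 M to 14.43 M in PRMT1 libraries and 11.54 M to 16.42 M in control libraries. The most abundant miRNA, miR-21-5p, took 56.9% to 59.1% of known miRNA counts in PRMT1 libraries and 49.4% to 66.0% in control libraries. Control library 2 had the highest share of miR-21-5p, and control library 3 stood apart in miR-24-3p, at 7.63% of known miRNA counts against 0.963% to 2.12% in the other 5. Of 7 miRNAs that mark epithelial cells, all had counts in every library. Their summed level was 7999 to 8876 CPM in PRMT1 libraries and 7746 to 10086 CPM in control libraries. CPM here are counts-per-million of known miRNA counts after TMM scaling, a correction for differences in library composition. Most of the summed level was miR-200a-3p, miR-200b-3p and miR-429. MiR-200c-3p had means of 47.6 CPM in PRMT1 and 49.0 CPM in control libraries, and miR-141-3p of 21.4 and 19.4 CPM. MiR-205-5p and miR-203a-3p were each below 10 CPM. Groups did not overlap for 2 of the 7 (28.6%), against 10.2% of all tested known miRNAs (68 of 668). Of these 2, miR-429 was lower in PRMT1 libraries (log2 fold change of PRMT1 over control -0.28, SE 0.20) and miR-205-5p higher (log2 0.72, SE 0.31). Of the 7, 0 passed the threshold of an edgeR adjusted p of 0.05. Of 7 markers of blood cells, miR-142-3p had 3 to 10 counts in PRMT1 libraries and 0 to 4 in control libraries, and miR-223-3p 0 to 4 and 0 to 2. MiR-142-5p had 0 to 1 and 0 to 2 counts, and miR-144-3p 0 to 3 and 0 to 1. The summed level of the blood markers was 73.4 to 99.6 CPM in PRMT1 libraries and 75.5 to 131 CPM in control libraries, most of it miR-486-5p. Of the 3 blood markers with enough counts for a test, miR-451a (log2 1.04, SE 0.47) and miR-150-5p (log2 0.79, SE 0.36) had higher means in PRMT1 libraries and miR-486-5p (log2 -0.43, SE 0.33) a lower one. The groups of miR-150-5p did not overlap (1 of the 3, against 10.2% of all tested names), and 0 of the 3 passed the threshold. The part of blood cell RNA in the levels below was not tested.

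MiR-146a-5p was among the 10 most abundant miRNAs of these cells in every library, while the other 4 members were far lower. Its counts were 218613, 173598 and 196913 in PRMT1 libraries 1 to 3, against 265680, 203970 and 204345 in control libraries 1 to 3. By rank among known miRNAs it was number 8, 9 and 7 in PRMT1 libraries, against 4, 8 and 8 in control libraries. It therefore stood highest in control library 1, and the ranks of the groups overlapped.

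Relative to known miRNA counts after TMM scaling, a correction for differences in library composition, miR-146a-5p stood at 14224, 14275 and 16471 CPM in PRMT1 libraries and at 19499, 16321 and 15897 CPM in control libraries. PRMT1 library 3 lay above control libraries 2 and 3, so the groups overlapped. The means were 14990 ± 1283 CPM in PRMT1 cells and 17239 ± 1969 CPM in control cells (SD, n = 3 each). The log2 fold change was -0.20 (SE 0.15), and miR-146a-5p did not pass the threshold (edgeR quasi-likelihood test, adjusted p = 0.789). Its 95% interval ran from 0.69-fold to 1.102-fold. Leaving out control library 1 gave a log2 value of -0.11, and leaving out control library 3 gave -0.32.

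MiR-155-5p was present at a much lower level, with 3204, 2689 and 2292 counts in PRMT1 libraries and 2583, 2971 and 3182 counts in control libraries. It ranked 120 in PRMT1 libraries 1 and 2 and slightly lower in PRMT1 library 3, against 113 to 123 in control libraries. Its scaled level was 208, 221.1 and 192 CPM in PRMT1 libraries, against 190, 238 and 248 CPM in control libraries. Control library 1 had the lowest value of all 6 libraries and the other 2 control libraries the highest ones, so the groups overlapped. Means were 207 ± 14.8 CPM in PRMT1 cells and 225 ± 31.02 CPM in control cells (SD, n = 3 each), a log2 fold change of -0.12 (SE 0.23) that did not pass the threshold (edgeR, adjusted p = 0.937). The 95% interval ran from 0.64-fold to 1.32-fold. Leaving out a library gave log2 values from -0.24, without control library 1, to -0.07, without PRMT1 library 3, and -0.20 without PRMT1 library 2.

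MiR-146b-5p, the paralog from chromosome 10, was the lowest of the 3 guide strands, with 573, 470 and 561 counts in PRMT1 libraries and 672, 621 and 333 counts in control libraries. The scaled values were 37.3, 38.6 and 46.9 CPM in PRMT1 libraries and 49.3, 49.7 and 25.9 CPM in control libraries. Control library 3 was the lowest of all 6, and control libraries 1 and 2 were the highest. Means were 41.0 ± 5.22 CPM in PRMT1 cells and 41.6 ± 13.6 CPM in control cells (SD, n = 3 each). The log2 fold change was -0.02 (SE 0.29; edgeR, adjusted p = 0.991), with a 95% interval from 0.62-fold to 1.55-fold. No direction can be read from it, since leaving out control library 3 gave -0.33, whereas leaving out control library 1 gave 0.11.

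**Figure D1:**
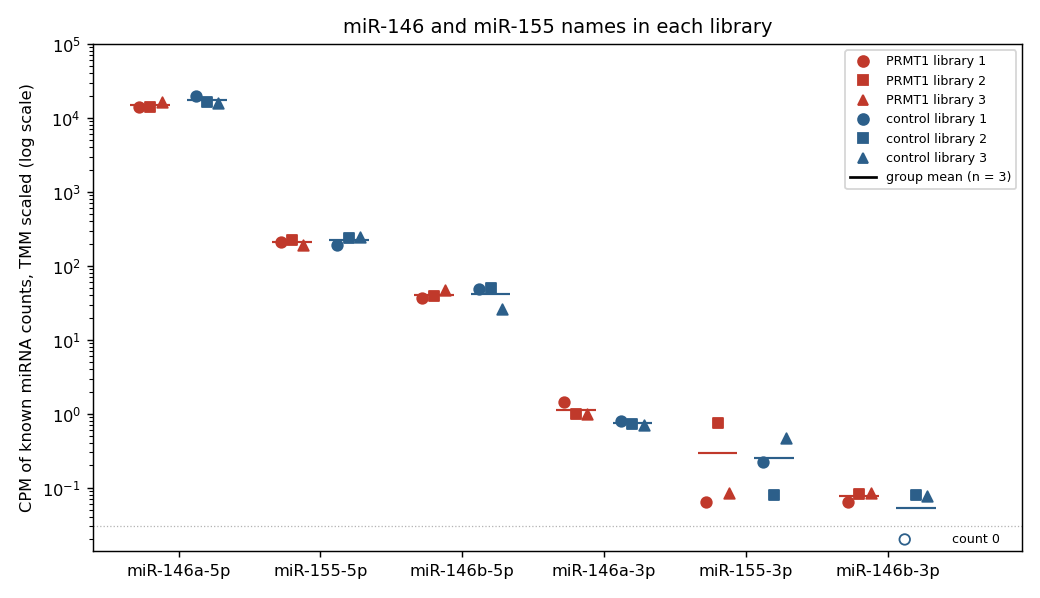
Level of each miR-146 and miR-155 strand in each library, in CPM of known miRNA counts after TMM scaling on a log axis, with 3 PRMT1 libraries (red) left of 3 control libraries (blue) and a line at each group mean; an open symbol marks a count of 0. MiR-146a-5p lies at 14224 to 16471 CPM in PRMT1 and 15897 to 19499 CPM in control libraries, far above miR-155-5p and miR-146b-5p, while the 3p strands of miR-155 and miR-146b lie below 1 CPM.

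The 2 remaining members, both 3p strands, were close to the limit of detection. MiR-155-3p had counts of 1, 9 and 1 in PRMT1 libraries and 3, 1 and 6 in control libraries. MiR-146b-3p had 1 count in each PRMT1 library, against 0, 1 and 1 in control libraries. A count of 0 allows up to 3 counts, or 0.183 to 0.26 CPM on the unscaled known miRNA totals of these libraries. Neither strand passed the filter on low counts, and they have no fold change in the filtered fit. Summed over libraries, miR-155-3p had 11 counts in PRMT1 cells (exact Poisson 95% interval 5.49 to 19.7) and 10 in control cells (4.80 to 18.4), intervals that cover counting error only.

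The order of levels was miR-146a-5p, miR-155-5p and miR-146b-5p in each of the 6 libraries, with no overlap between these names, followed by the 3p strands. MiR-155-3p and miR-146b-3p could not be ranked, being tied at 1 count in 3 of the 6 libraries. These levels are read counts of strands of 22 to 24 bases, with no length term.

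Of the 5 members, 3 passed the filter and 0 passed the threshold of an adjusted p of 0.05, where the share over all tested known miRNAs was 0% (0 of 668; edgeR). Over all 668 names, 36 had an unadjusted p under 0.05 and limma-voom called 0. DESeq2, run on all 1727 names with its own default filtering in place of this filter, called 4, with no member among them. The 3 guide strands had overlapping groups, whereas 10.2% of all tested names (68 of 668) had groups that did not overlap. Replicate spread was small for 2 of them. The SD of log2 CPM within groups was 0.14 for miR-146a-5p and 0.16 for miR-155-5p, and 94.9% and 92.5% of the 668 names had a larger one. Many of those names are less abundant. Among the 159 names of at least 100 CPM, 89.3% and 84.9% had a larger one. For miR-146b-5p it was 0.40, and 46.1% of names had a larger one.

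**Figure D2:**
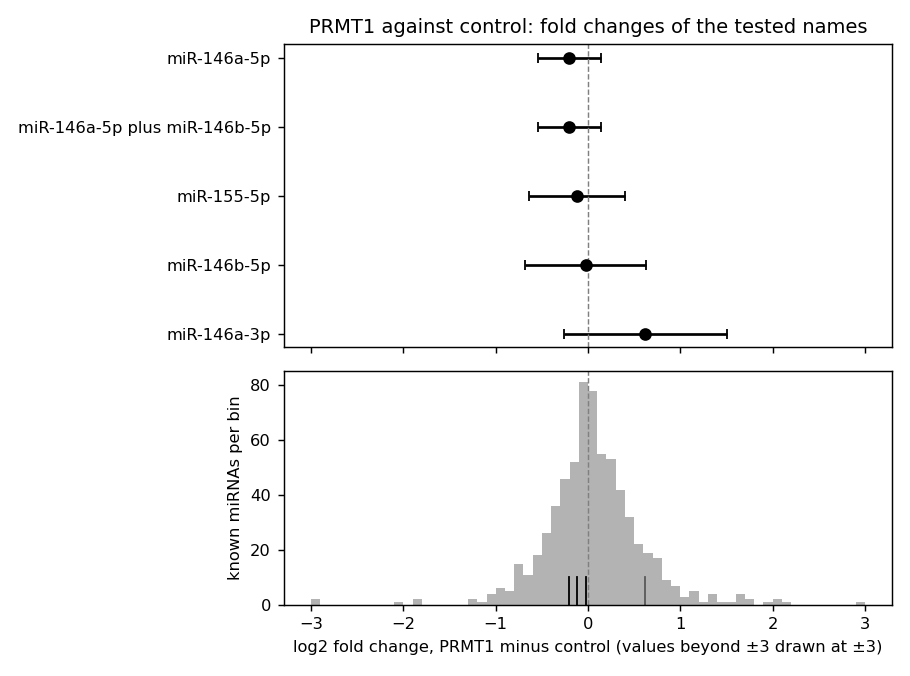
Upper panel, log2 fold change of PRMT1 minus control with its 95% interval for the 3 tested members, the sum of both miR-146 guides and the other arm miR-146a-3p; lower panel, the same values for all 668 tested known miRNAs in bins of 0.1, with short vertical lines at the named miRNAs. All 5 intervals include 0, and the guide strands lie at -0.20, -0.12 and -0.02, near the centre of the distribution.

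Paralog balance was strongly to the side of miR-146a. MiR-146b-5p made up 0.261%, 0.270% and 0.284% of miR-146 5p counts in PRMT1 libraries 1 to 3, against 0.252%, 0.304% and 0.163% in control libraries 1 to 3. There was thus 1 miR-146b-5p read in 352 to 383 miR-146 5p reads in PRMT1 libraries, and 1 in 329 to 615 in control libraries. The share in control library 3 had an exact binomial 95% interval of 0.146% to 0.181%, below the intervals of the other 5 libraries, the lowest of which began at 0.234%. Means were 0.272% ± 0.0114 in PRMT1 cells and 0.240% ± 0.0713 in control cells (SD, n = 3 each; two-sided exact permutation p = 0.7, Benjamini-Hochberg 0.9 over 8 measures of balance). With 3 against 3 libraries this test cannot go below 0.1. The difference of 0.0323 percentage points became -0.00608 without control library 3, which also held the high miR-24-3p; the part of that library's composition in its miR-146b share was not tested.

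As both guides share a seed and most bases, they were also summed. The sum stood at 15031 ± 1288 CPM in PRMT1 cells and 17281 ± 1977 CPM in control cells (SD, n = 3 each), a log2 fold change of -0.20 (SE 0.15; edgeR, adjusted p = 0.789). These are nearly the values of miR-146a-5p alone as deposited. Other ways of dividing reads common to both names were not tested. Leaving out control library 1 gave the sum a log2 value of -0.11, and leaving out control library 3 gave it -0.32.

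The balance between the families was likewise on the side of miR-146. Per 100 miR-146 5p counts there were 1.46, 1.54 and 1.16 miR-155-5p counts in PRMT1 libraries, against 0.970, 1.45 and 1.55 in control libraries. The lowest ratio belonged to control library 1, where miR-146a-5p had its highest count. Means were 1.39 ± 0.202 in PRMT1 cells and 1.33 ± 0.312 in control cells (SD, n = 3 each; exact permutation p = 0.8, Benjamini-Hochberg 0.9). All 5 members together took 1.54%, 1.48% and 1.65% of known miRNA counts in PRMT1 libraries, against 2.17%, 1.26% and 1.80% in control libraries (exact permutation p = 0.6, Benjamini-Hochberg 0.9). Both the lowest and the highest share belonged to control libraries, and control library 2, the lowest, was the one with most miR-21-5p in the same total. The part of miR-21-5p in that low share was not tested.

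The arm ratio was lopsided towards 5p in all 3 hairpins. For miR-155, the 3p strand was 0.0312%, 0.334% and 0.0436% of both arms in PRMT1 libraries and 0.116%, 0.0336% and 0.188% in control libraries. PRMT1 library 2 stood highest on 9 counts, with an exact binomial 95% interval of 0.153% to 0.632%. Means were 0.136% ± 0.171 in PRMT1 cells and 0.113% ± 0.0773 in control cells (SD, n = 3 each; exact permutation p = 0.9, Benjamini-Hochberg 0.9), and the difference of 0.0235 percentage points turned to -0.0752 without PRMT1 library 2.

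For miR-146b, the 3p strand was 0.174%, 0.212% and 0.178% of both arms in PRMT1 libraries, each on 1 count, against 0%, 0.161% and 0.299% in control libraries. The count of 0 in control library 1, of 672 counts for both arms, allows a share of up to 0.446%, so no difference was detectable at this depth (exact permutation p = 0.7, Benjamini-Hochberg 0.9).

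MiR-146a-3p, the other strand of the abundant guide, is not a member but completes the comparison. It had 22, 12 and 12 counts in PRMT1 libraries and 11, 9 and 9 counts in control libraries. Its share of both arms was 0.0101%, 0.00691% and 0.00609% in PRMT1 libraries and 0.00414%, 0.00441% and 0.00440% in control libraries. The groups did not overlap, but the exact binomial interval of each PRMT1 library reached into those of the control libraries. Means were 0.00769% ± 0.00210 in PRMT1 cells and 0.00432% ± 0.000155 in control cells (SD, n = 3 each; exact permutation p = 0.1, the smallest that this design allows, Benjamini-Hochberg 0.4). Without PRMT1 library 1 the difference of 0.00337 percentage points was 0.00218. As a level, miR-146a-3p stood at 1.14 ± 0.252 CPM in PRMT1 cells and 0.743 ± 0.0570 CPM in control cells (SD, n = 3 each), with a log2 fold change of 0.62 (SE 0.39) that did not pass the threshold (edgeR, adjusted p = 0.773), and its groups were among the 10.2% that did not overlap.

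**Figure D3:**
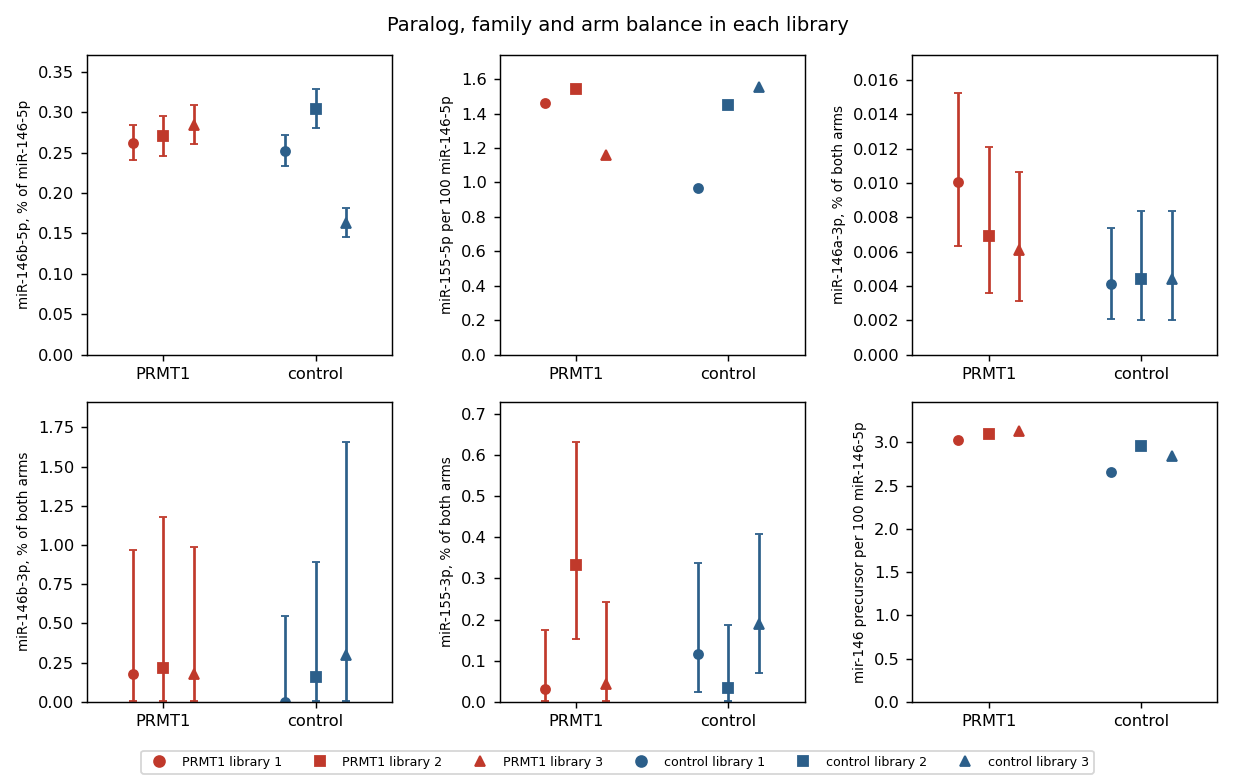
Balance of paralogs, families and arms in each library, with PRMT1 (red) left of control (blue) and a symbol per replicate number; bars on shares are exact binomial 95% intervals for counting error, and every axis starts at 0; the last panel adds counts of the mir-146 precursor rows per 100 miR-146 5p counts, at 3.02 to 3.13 in PRMT1 and 2.65 to 2.96 in control libraries. The miR-146b share lies at 0.261% to 0.284% in PRMT1 libraries and 0.163% to 0.304% in control libraries, and the shares of the 3p arms rest on few counts.

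Set against the other miRNAs of these cells, the arm ratio of miR-146a was among the most one-sided. Over all 6 libraries, 180 names had both arms listed and at least 1000 counts in all, and the median share of their less abundant arm was 1.61%. That share was 0.00594% for miR-146a, the 4th lowest of 180. It was 0.124% for miR-155, the 23rd lowest, and 0.155% for miR-146b, the 27th lowest. Among 50 pairs of names lettered a and b with at least 1000 counts, the less abundant name held a median of 15.3% of the pair, and miR-146b-5p with 0.255% gave the 5th lowest value. These are descriptions with no test, and names whose other arm was not listed do not enter.

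**Figure D4:**
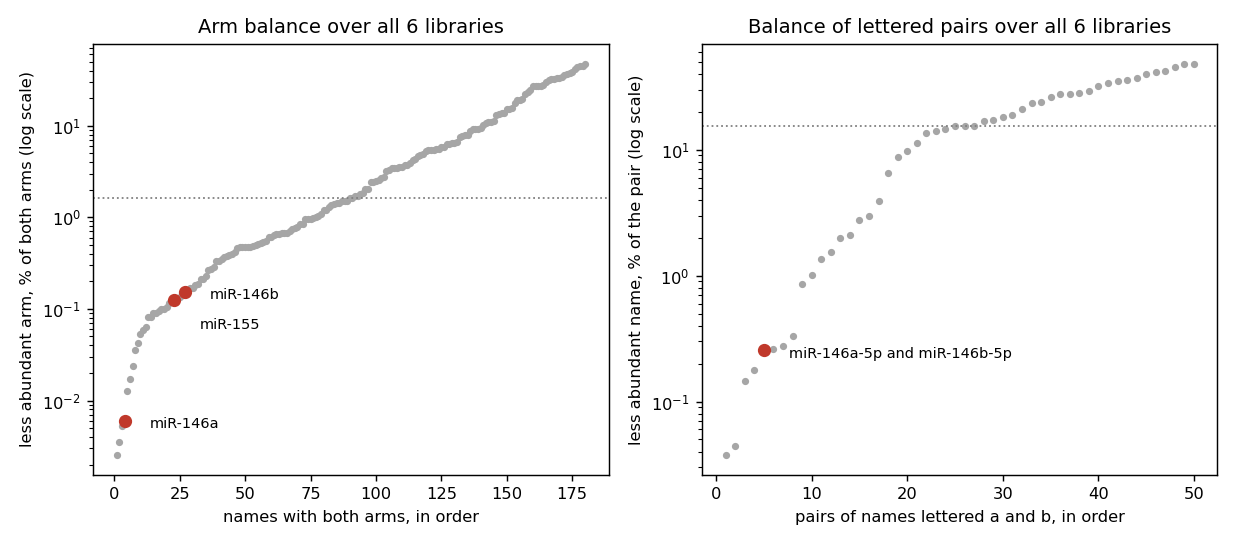
Left, share of the less abundant arm for 180 names with both arms, and right, share of the less abundant name for 50 pairs of names lettered a and b, both over all 6 libraries, in order and on log axes; dotted lines are medians. MiR-146a lies at 0.00594%, miR-155 at 0.124% and miR-146b at 0.155% on the left, and the miR-146 5p pair at 0.255% on the right.

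The members did not follow a common pattern over libraries. Across the 6 libraries, which were scaled together, Pearson's r of log2 CPM was 0.45 between miR-146a-5p and miR-146b-5p. It was -0.42 between miR-146a-5p and miR-155-5p, and -0.60 between miR-146b-5p and miR-155-5p. Among 157 other miRNAs of at least 100 CPM, the patterns most like that of miR-146a-5p were those of miR-652-3p (r = 0.94), miR-196a-5p (r = 0.94) and miR-22-5p (r = 0.93). The patterns most like that of miR-155-5p were those of miR-182-5p (r = 0.78), miR-96-5p (r = 0.76) and miR-24-3p (r = 0.72). These are the highest of 157 values over 6 points each and are given as descriptions. MiR-24-3p stood at 68536 CPM in control library 3, against 11049 to 20785 CPM elsewhere. MiR-155-5p also had its highest value, 248 CPM, in that library. The r of miR-24-3p without control library 3 was not computed.

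A list of 19 other miRNAs tied to NF-kB or inflammatory signalling was described alongside. It had 17 tested names, of which 0 passed the threshold, with 7 above and 10 below 0, a median log2 fold change of -0.03 and 1 name (5.88%) without overlap between groups, against 10.2% of all tested names. That name, given here because its values were seen, was miR-147b-3p, at 9.03 CPM in PRMT1 cells and 5.13 CPM in control cells (log2 0.82, SE 0.35; edgeR, adjusted p = 0.741). Over all 668 tested names, 360 lay above and 308 below 0, with a median of 0.04. The most abundant tested names of the list were miR-21-5p, an oncogenic miRNA (log2 -0.08, SE 0.25), miR-222-3p, which represses the cell cycle inhibitor p27 (log2 0.07, SE 0.17), miR-31-5p (log2 -0.03, SE 0.18) and miR-181a-5p, which tunes T cell receptor signalling (log2 0.06, SE 0.17). None of these passed the threshold.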

How the data were processed

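Per the file headers, each of the 6 deposited tables gives the count and TPM of each small RNA, with its class. The counts deposited by the authors were whole reads per name, not normalised. The deposited TPM equalled counts-per-million of the whole table to within 0.005 and served only as a check. Per the submitters' processing notes, HISAT, Bowtie2, RSEM and GRCh37.p13 were used; the sources used here do not give their roles or how reads with several matches were handled. Names absent from a table were taken as 0.

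Known mature miRNAs were filtered with filterByExpr, scaled by TMM and tested in edgeR 4.0.16 (robust quasi-likelihood test, no block, Benjamini-Hochberg over 668 names, threshold 0.05). SEs were derived from the fold change and F. DESeq2 1.42.0 and limma 3.58.1 were alternatives. Balance measures were compared over libraries with two-sided exact permutation tests (scipy 1.17.1), with exact Clopper-Pearson 95% intervals per library for counting error only. The code of the fit was run on simulated counts with the same replicate spread set for every name. That run does not show how the fit performs on libraries that differ in composition as these do. Library pairs differed well beyond sampling noise (smallest chi-square per degree of freedom 338.9 over 587 names). Sequences and positions came from RefSeq (GRCh38.p14) and GENCODE 29, not the build of the notes. Named miRNAs were the members, miR-146a-3p, names sharing a member's seed, the 4 most abundant of the NF-kB list and the 3 most alike in pattern to miR-146a-5p and to miR-155-5p. Beside these, miR-147b-3p, markers of epithelial and blood cells, and miR-24-3p as a feature of control library 3 were named after their values were seen. Members and lists were chosen with earlier results of these data known; the miR-146a arm share, the precursor ratios and the shares over all names were chosen after seeing the data.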

Additional observations from a re-analysis of the deposited data

How the results depend on the processing

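The log2 fold changes of miR-146a-5p, miR-155-5p and the miR-146 5p sum kept their sign, without passing the threshold, under all 17 alternatives each. Over scalings, row sets, filters and tools these ran from -0.33 to -0.17, -0.25 to -0.06 and -0.33 to -0.16. That of miR-146b-5p changed sign with library size scaling to known miRNAs (0.0535), limma-voom (0.0284) and the replicate block (0.0234), and ran from -0.328 to 0.106 when a library was left out; the cause was not tested. The count of known miRNAs called, 0, was 9 without a filter (over 1727 names) and 1 with the replicate block. It was 4 with DESeq2, where 1727 names entered and its default filtering can leave some out of the adjustment. When a library was left out it was 0 to 1 (1 without PRMT1 library 1). No member was among the names called in any of these. Same-numbered libraries deviated together with r of -0.09, 0.20 and -0.12, so numbers were not taken to pair libraries. When a library was left out, differences (PRMT1 minus control) ran from -0.00608 to 0.0643 percentage points for the miR-146b share, -0.0419 to 0.108 for the miR-146b 3p share, -0.0752 to 0.0760 for the miR-155 3p share, -0.114 to 0.178 for miR-155-5p per 100 miR-146 5p counts and -0.428 to 0.0254 for the members' share of known miRNAs. Counts summed within groups changed no sign of these. MiR-146b-3p and miR-155-3p could be fitted only without a filter (log2 0.48, SE 1.51, and 0.13, SE 0.86), at counts too low for a direction.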

Other observations

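Each table also holds rows for Rfam precursor families. The mir-146 family had 6627, 5384 and 6185 counts in PRMT1 libraries and 7068, 6060 and 5830 counts in control libraries. Per 100 miR-146 5p counts this was 3.02, 3.09 and 3.13 in PRMT1 libraries, against 2.65, 2.96 and 2.85 in control libraries. The groups did not overlap (exact permutation p = 0.1, the smallest that 3 against 3 libraries allow, Benjamini-Hochberg 0.4 over 8 measures of balance), and leaving out a library gave differences from 0.178 to 0.332. The mir-155 family had 416, 341 and 328 counts in PRMT1 libraries and 498, 420 and 418 counts in control libraries. Per 100 miR-155-5p counts this was 12.98, 12.7 and 14.3 in PRMT1 libraries, against 19.3, 14.1 and 13.1 in control libraries, which overlapped (exact permutation p = 0.4, Benjamini-Hochberg 0.9). The highest ratio belonged to control library 1, without which the difference of -2.19 was -0.311. Counts of the precursor rows per mature count were thus higher for miR-155 than for miR-146 in each of the 6 libraries. The sources used here do not say which reads these rows hold, or whether the mature names count some of them too. These ratios were chosen after seeing the data, which their p-values do not take into account. How often ratios of other precursor families had groups without overlap was not computed.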
